A study of Mus musculus with 28 samples.

Results

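Isolated hepatocytes and whole liver of WT mice that received no fibrosis diet or virus were compared gene by gene. The 8 libraries (4 whole livers and 4 hepatocyte preparations) were chosen from the 28 of the series by their labelled tissue and genotype. All 8 came from unmanipulated FVB mice, FAKfl/fl;Alb-Cre-, the littermate controls of a liver FAK deletion: both alleles of Ptk2 (the gene of focal adhesion kinase, FAK) were floxed in every mouse and no Cre was present. The mice were 6 to 8 weeks old. The numbers in the labels differ between livers and hepatocytes, and no label says that a liver and a hepatocyte library came from the same mouse. Sex, feeding state and hour of collection are not given in the sources used here, so isolation, the mouse and the way each material was handled cannot be told apart. Hepatocytes were freed by perfusing the liver in situ with a perfusion and then a digestion medium and were enriched on a Percoll density gradient, whereas whole liver was kept in RNAlater. A parallel set of 8 KO libraries (FAKfl/fl;Alb-Cre+, with Cre driven by the albumin promoter in hepatocytes and bile duct cells) is set beside the WT result only where named.

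Hepatocytes make up most of the liver's mass and carry out its synthesis, detoxification and metabolism. The sinusoids between them are lined by fenestrated endothelial cells, hold the resident macrophages called Kupffer cells, and are wrapped by vitamin A-storing stellate cells, and bile ducts are lined by cholangiocytes. Enzymatic dispersal of a tissue breaks cell contacts and is a known trigger of the immediate early genes, which encode transcription factors and feedback inhibitors that are transcribed within minutes of a stimulus without new protein synthesis. The comparison asks which transcripts of whole liver the isolated cells lack and which they carry in excess.

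The whole-liver libraries held 11162678 to 19049138 gene counts and the hepatocyte libraries 16263473 to 19838668, with 5.22% to 6.42% of counts in mitochondrial genes. By edgeR's quasi-likelihood test, fitted over the 16 libraries of mice without the fibrosis diet with Benjamini-Hochberg adjustment over 12507 genes, 1227 genes were higher in WT hepatocytes (9.81% of genes tested) and 1949 were lower (15.6%). Of these, 153 were at least 2-fold higher (1.22%) and 906 at least 2-fold lower (7.24%). With library totals in place of TMM scaling the split was 757 higher and 2267 lower. Ptk2 itself was close in both, at 3.65, 5.18, 5.38 and 6.67 FPKM (the deposited values scaled for gene length and library size) in liver and 6.46, 5.71, 5.79 and 5.68 FPKM in hepatocytes. Of the hepatocyte markers, Alb, Apoa1, Ttr, Cyp2e1 and Hnf4a were not called, with log2 changes between -0.31 and 0.31. The remaining marker of the set, Cps1, was called higher, and its values are given with the periportal genes.

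The whole livers did not behave as 1 group. Replicates 1 and 3 were rich in counts from short genes, and replicates 2 and 4 were not: across genes tested, the rank correlation of a library's deviation from the 8-library mean with gene length was -0.57 and -0.45 in livers 1 and 3, 0.17 and 0.11 in livers 2 and 4, and 0.27 to 0.41 in the hepatocyte libraries. Genes called higher had a median length of 4843 bases, those called lower 1925 and all genes tested 3090. Leaving out livers 1 and 3 left 68 genes higher (0.526% of 12918 tested) and 357 lower (2.76%), and leaving out livers 2 and 4 gave 2329 higher (18% of 12905) and 2574 lower (19.9%). The 76 tested genes of cytosolic ribosomal proteins, a group of short genes looked at after values were seen, had 70 members lower with all livers and 3 without livers 1 and 3. Leaving out single libraries moved the total by over 1.5 times in 3 cases, to 1729 genes without liver 1, 1562 without liver 3 and 1840 without hepatocyte preparation 1. A set of 344 genes (64 higher, 280 lower) was called in the same direction with all 4 livers, with livers 1 and 3 alone and with livers 2 and 4 alone. Counts of calls left with livers 2 and 4 alone stand beside the gene groups that follow, and the shares of each group called are to be read against the 9.81% higher and 15.6% lower of all genes tested.

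**Figure D1:**
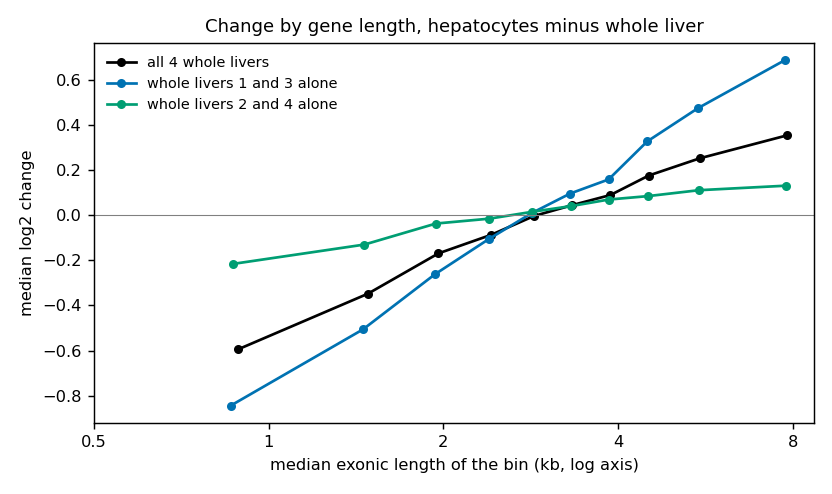
Median log2 change (hepatocytes minus whole liver, WT) of genes tested in 10 bins of equal size ordered by exonic length, on a log axis in kb, with all 4 whole livers and with either pair alone. The shortest bin sits at -0.59 with all livers, -0.84 with livers 1 and 3 alone and -0.22 with livers 2 and 4 alone, and the longest at 0.35, 0.69 and 0.13.

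Immediate early genes carried the largest rises. Of 28 listed, 22 passed the filter on low counts, 14 of those were called higher and none lower, against 9.81% of all genes tested called higher. With livers 2 and 4 alone, 9 were still called, and without any single library 12 to 14 were. The median log2 change of the 22 was 1.77, against -0.02 over all genes tested. In the KO libraries 13 of the 22 were called higher, where 20.2% of all genes tested were, and none lower.

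Fos, the partner of Jun in the AP-1 transcription factor, had the largest rise. Its level was 0.212, 0.698, 0.411 and 0.274 FPKM in whole livers 1 to 4 and 26.4, 31.2, 51.6 and 20.4 FPKM in hepatocyte preparations 1 to 4. The lowest hepatocyte value was thus far above the highest liver value, and the log2 change was 6.38 (SE 0.65, adjusted p = 5.04e-05 by edgeR). Jun rose from 2.81, 10.6, 3.48 and 7.67 FPKM to 44.8, 42.2, 65.3 and 41.1 FPKM, a log2 change of 3.03 (SE 0.43, adjusted p = 0.000843). Fosb, almost absent from liver at 0, 0.0713, 0 and 0.112 FPKM, stood at 0.818, 0.596, 3.10 and 2.11 FPKM in hepatocytes (log2 change 4.96, adjusted p = 0.0013). Junb, which can replace Jun in AP-1, rose by a log2 change of 1.47 (13.97 to 24.99 FPKM in liver, 45.8 to 59.1 in hepatocytes), a call lost with livers 2 and 4 alone (adjusted p = 0.108). Every one of these AP-1 genes had 4 hepatocyte values above its 4 liver values. Values without overlap, in either direction, were found in 24.3% of all genes tested and in 2402 of the 3176 genes called.

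Egr1, a zinc finger transcription factor induced by growth factors and stress, rose from 0.779, 7.07, 2.24 and 2.31 FPKM to 39.9, 29.9, 55.7 and 27.8 FPKM (log2 change 3.68, SE 0.65, adjusted p = 0.00279). Nr4a1, an orphan nuclear receptor, rose from 0.0724, 0.0540, 0.1402 and 0.233 FPKM to 0.879, 2.40, 2.40 and 4.10 FPKM (log2 change 4.25, adjusted p = 0.00186). The lowest Nr4a1 value among the hepatocytes was that of preparation 1, whereas preparation 1 was the highest for Dusp1. Atf3, a stress-induced repressor of the CREB family, rose by a log2 change of 3.84, from 0.175 to 0.438 FPKM in liver to 1.77 to 8.13 FPKM in hepatocytes, and Myc by 2.15, from 0.264 to 1.38 FPKM to 2.24 to 5.27 FPKM. Neither of the last pair was called with livers 2 and 4 alone (adjusted p = 0.0592 and 0.0693), and the Myc call was also lost without hepatocyte preparation 1 or 2 and without liver 4.

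Dusp1, a phosphatase that switches off MAP kinases, stood at 8.87, 11.1, 7.35 and 9.03 FPKM in liver and 129, 44.8, 51.7 and 70.8 FPKM in hepatocytes (log2 change 3.07, SE 0.34, adjusted p = 0.000123). Gadd45g, a stress and growth arrest protein, rose from 2.26, 1.12, 1.70 and 1.67 FPKM to 73.2, 119, 109 and 43.3 FPKM (log2 change 5.73, SE 0.70, adjusted p = 0.000251). Its relative Gadd45b went the other way without a call, at a log2 change of -1.30. Btg2, an antiproliferative gene, rose by a log2 change of 2.63 and Ier2 by 1.90, and both held with livers 2 and 4 alone (adjusted p = 0.0368 and 0.011). Zfp36, which speeds the decay of cytokine mRNAs, rose from 13.9, 59.8, 33.1 and 43.1 FPKM to 116, 105, 141 and 85.4 FPKM (log2 change 1.64, adjusted p = 0.00849), a call lost with livers 2 and 4 alone (adjusted p = 0.115). Jund had the smallest called change of the list, 0.42, and its call was lost without livers 1, 2 or 4 and without hepatocyte preparations 1, 3 or 4, as it was when library totals or upper quartiles replaced TMM scaling.

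Not every listed gene was called. Klf2, Klf6, Ier5, Maff, Fosl2, Klf4, Ier3 and Gadd45b were tested and not called, at log2 changes from -1.30 to 0.67, and Fosl1, Egr2, Egr3, Nr4a2, Nr4a3 and Dusp2 had too few counts to be tested. Klf2 is highest in endothelium in most tissues and stood at a mean of 3.92 FPKM in liver and 2.22 in hepatocytes. Endothelial markers, described further on, were lower in the same libraries, and how far that moved the Klf2 value was not tested.

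**Figure D2:**
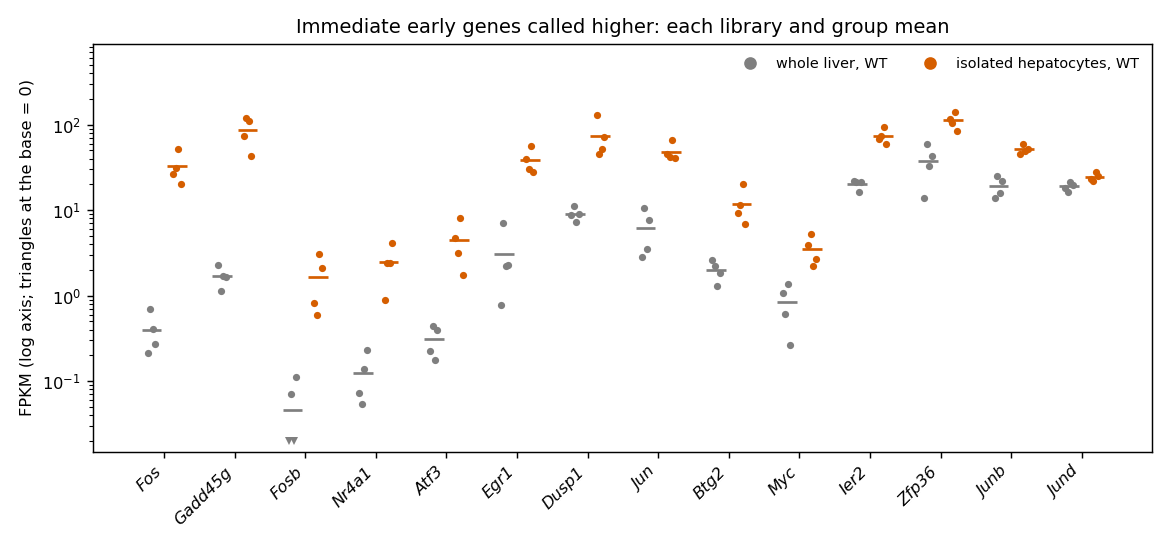
FPKM of the 14 immediate early genes called higher in WT hepatocytes, on a log axis: each point is 1 library, grey for whole liver and orange for hepatocytes, and each bar a mean over 4 libraries. Fos lies between 0.212 and 0.698 FPKM in liver and between 20.4 and 51.6 FPKM in hepatocytes. No gene shown has overlapping groups, as is so, in either direction, for 24.3% of all genes tested.

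The sequence just upstream of these genes is shown because they moved together. RefSeq promoter windows (build GRCm38.p6, the first window listed for each gene, 250 bases before the start site) were found for 11 of the 14 genes called. Several motifs were searched on both strands: the full cyclic AMP response element TGACGTCA, its core TGACG (which the full element contains), the AP-1 element TGANTCA and the CArG box bound by serum response factor. The core was present in 7 of the 11 windows (Btg2, Atf3, Fosb, Junb, Fos, Nr4a1 and Dusp1), against 27.1% of the windows of genes tested and 17.9% of all 27025 windows. Over all 23 list members with a window, called or not, it was present in 11 (47.8%), and in the unfolded protein list described next it was present in 10 of 21 (47.6%). The full element was present in Btg2 and Dusp1 (2.71% of windows of genes tested and 1.62% of all), the CArG box in Zfp36 (1.11% and 1.4%), and the AP-1 element in none of the 11 (4.43% and 6.87%). In the lines that follow, capitals mark the core in Fos (chr12:85473640-85473889, plus strand, at 129 and 66 bases before the start) and the full element in Dusp1 (chr17:26508473-26508722, minus strand, 143 bases before the start).
Fos: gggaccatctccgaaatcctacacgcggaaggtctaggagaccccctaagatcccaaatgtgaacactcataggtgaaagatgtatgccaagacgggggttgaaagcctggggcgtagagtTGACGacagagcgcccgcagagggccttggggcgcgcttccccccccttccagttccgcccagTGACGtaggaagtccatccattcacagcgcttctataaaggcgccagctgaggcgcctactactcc
Dusp1: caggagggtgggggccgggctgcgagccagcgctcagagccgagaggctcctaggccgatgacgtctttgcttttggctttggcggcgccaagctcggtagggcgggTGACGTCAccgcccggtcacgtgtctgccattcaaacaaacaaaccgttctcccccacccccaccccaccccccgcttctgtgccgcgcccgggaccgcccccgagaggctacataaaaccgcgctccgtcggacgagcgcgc
A match of letters is a description of the window and not evidence of binding.

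Of 22 listed genes of the unfolded protein and integrated stress responses, all were tested, 5 were called higher (Pdia4, Hsp90b1, Hspa5, Calr and Pdia6, 22.7% against 9.81% of all genes tested) and none lower, with a median log2 change of 0.13. Hspa5 (BiP), the main chaperone of the compartment, stood at 347, 430, 261 and 363 FPKM in liver and 774, 669, 511 and 342 FPKM in hepatocytes. The groups overlapped through preparation 4, and the log2 change of 0.75 (SE 0.24, adjusted p = 0.034) was lost without livers 1, 3 or 4 and without preparations 1 or 2. Hsp90b1 (GRP94) stood at 89.2, 168, 94.4 and 170 FPKM against 397, 175, 207 and 205 FPKM, with preparation 1 apart from the other preparations (log2 change 0.97, SE 0.24, adjusted p = 0.0106). Pdia4 and Pdia6, protein disulfide isomerases, rose by log2 changes of 1.007 and 0.48, and only Pdia6 was still called with livers 2 and 4 alone (adjusted p = 0.0288). Without hepatocyte preparation 1, 3 of the 5 calls were left. The transcription factor genes of the same response, Atf4, Ddit3 and Xbp1, were not called.

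Of the 5 chaperone genes called, 4 held the endoplasmic reticulum stress element (CCAAT and CCACG with 9 bases of any kind between them, searched on both strands) in the same 250-base window, which 0.176% of the windows of genes tested and 0.122% of all windows held. The element was found with 21 of the 22 list members matched, and the fifth gene with it, Creld2, was not called. The element is named for the endoplasmic reticulum stress response, so its presence in genes of that response is no result of these data. Here too a match of letters describes the window and is not evidence of binding. The sites are printed with 10 flanking bases on each side, in the orientation of the element and with the element in capitals, at chr2:34772015-34772053 (Hspa5), chr8:84847065-84847103 (Calr), chr10:86705628-86705666 and chr10:86705523-86705561 (Hsp90b1, which had 2) and chr12:17266481-17266519 (Pdia6).
Hspa5: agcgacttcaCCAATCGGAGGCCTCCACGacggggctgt
Calr: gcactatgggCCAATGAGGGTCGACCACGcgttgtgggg
Hsp90b1, far site: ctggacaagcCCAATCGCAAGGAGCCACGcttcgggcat
Hsp90b1, near site: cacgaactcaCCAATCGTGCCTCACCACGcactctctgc
Pdia6: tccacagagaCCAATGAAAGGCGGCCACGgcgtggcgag

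Of 22 heat shock genes 4 were higher (Hsp90aa1, Hspa4l, Hsp90ab1 and Hspa4, 18.2% against 9.81% of all genes tested) and 2 lower (Cryab and Hspe1, 9.09% against 15.6%). None was higher and 1 was lower with livers 2 and 4 alone, and all 4 rises were lost without hepatocyte preparation 1, all but 1 without liver 1 and all but 1 without liver 3. Hsp90aa1, the stress-inducible cytosolic HSP90, was at 193 FPKM in preparation 1 and 48.3 to 63.4 FPKM in the others, against 29.9 to 50.7 FPKM in liver. Cryab, a small heat shock protein of muscle and stellate cells, fell by 1.70 on the log2 scale and was called under all 19 alternatives. Of 16 NRF2 targets tested only Gclc (glutathione synthesis) was higher (6.25% against 9.81% of all genes tested). Its log2 change was 0.49, a call lost without liver 1 or preparation 1 and with livers 2 and 4 alone. Of 13 p53 targets tested none was called higher and 3 were lower (Phlda3, Bax and Sesn1, 23.1% against 15.6% of all genes tested), none of them with livers 2 and 4 alone. Cdkn1a nevertheless reached 10.5 FPKM and Gdf15 43.8 FPKM in preparation 3, the highest value of the 8 libraries for each. Of 13 hypoxia and glycolysis genes tested 3 were lower (Pkm, Hk1 and Bnip3, 23.1% against 15.6% of all genes tested), 1 with livers 2 and 4 alone. Pkm, the pyruvate kinase of non-hepatocyte cells, fell by 1.03 on the log2 scale and held under all 19 alternatives.

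Of 15 genes of NF-kB and cytokine signalling tested, 2 were higher and none lower, a share (13.3%) near the 9.81% of all genes tested, and neither was called with livers 2 and 4 alone. Cxcl1, a neutrophil-attracting chemokine, rose from 1.69, 2.45, 1.27 and 2.15 FPKM to 9.42, 17.2, 4.76 and 5.55 FPKM (log2 change 2.30, SE 0.62, adjusted p = 0.0153), and Socs3, an inhibitor of cytokine signalling, rose by 2.25. Without liver 3 neither was called, and without preparation 2 or 4 only Cxcl1 was. Of 18 acute phase genes, plasma proteins that hepatocytes secrete in inflammation, 5 rose (Itih4, Itih3, Cp, Lbp and Saa4, 27.8% against 9.81% of all genes tested) and none fell, with a median log2 change of 0.69. Itih4 stood at 421, 714, 421 and 506 FPKM in liver and 884, 1071, 900 and 868 FPKM in hepatocytes, a log2 change of 0.90 (SE 0.15, adjusted p = 0.00243) that held under all 19 alternatives. It was the only acute phase call left with livers 2 and 4 alone, and without liver 3 the list kept 3 calls. The strongly inducible Saa1, Saa2 and Lcn2 were not among those called.

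The largest falls were those of globin genes. Hbb-bs (beta globin) stood at 235, 125, 344 and 109 FPKM in whole liver and 0.287, 0.490, 0.1296 and 0.316 FPKM in hepatocytes, a log2 change of -9.32 (SE 0.53, adjusted p = 1.37e-08). Hba-a1 (alpha globin) stood at 80.2, 70.1, 174 and 79.0 FPKM and at 0.0798, 0.234, 0.216 and 0.176 FPKM (log2 change -9.02, SE 0.42, adjusted p = 9.17e-10), so that 0.18% of the whole-liver level was left. Hba-a2 and Hbb-bt were at 0 counts in all 4 hepatocyte libraries, at least 359-fold and 44.7-fold lower against a floor of 3 counts over the 4 libraries. Both passed the count filter through other libraries, so that their direction was close to fixed by the filter. Each globin pair is nearly identical in sequence, so the split within a pair is uncertain. The summed level of the red blood cell list was nevertheless 47.7% of whole liver, which rests on Alas2. Of 10 red blood cell genes 6 were tested and 5 were lower, all 5 also with livers 2 and 4 alone (median log2 change -8.48, or -6.99 with genes at 0 set at their bound), and the exception, Alas2 (heme synthesis in red cell precursors), was at 93.6 to 160.5 FPKM in liver and 107 to 131 FPKM in hepatocytes. In bulk samples fewer cells of a type and less RNA per cell cannot be told apart, here and in all lists that follow.

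Of 28 Kupffer cell and macrophage genes listed, 26 were tested, 25 of those were lower and none higher (median log2 change -2.11), against 15.6% of all genes tested called lower. With livers 2 and 4 alone 20 were still called, without any single library 24 to 27, and in the KO libraries 26, where 23.9% of all genes tested were lower. Clec4f, a lectin found only on Kupffer cells in mice, stood at 31.3, 39.1, 38.6 and 24.6 FPKM in liver and 4.11, 10.7, 6.36 and 5.03 FPKM in hepatocytes (log2 change -2.31, SE 0.34, adjusted p = 0.000889). Cd5l, a secreted macrophage protein, fell from 46.0, 30.4, 51.6 and 32.8 FPKM to 3.23, 13.5, 5.52 and 6.37 FPKM (log2 change -2.46, adjusted p = 0.000889). The complement gene C1qa fell by 2.62 on the log2 scale, the myeloid adaptor Tyrobp by 3.03, the F4/80 gene Adgre1 by 2.38, the growth factor receptor Csf1r by 1.72 and the lysozyme gene Lyz2 by 2.85, each called under all 19 alternatives. C1qb, Ctss and Vsig4 fell by 2.55, 2.27 and 1.98 and also held under all 19, and Timd4 fell by 1.73, a call lost with livers 2 and 4 alone. Among the 4 preparations, preparation 2 held the highest and preparation 1 the lowest value of Clec4f, Cd5l, C1qa, Tyrobp, Adgre1, Csf1r and Lyz2. As a percent of the mean of the 4 livers, the summed level of the list was 10.8, 38.8, 19.3 and 18.3 in preparations 1 to 4 (mean 21.8).

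Of 21 lymphocyte genes only 4 had counts enough for the test, and these passed the count filter through the livers, so that their direction was close to fixed by the filter. They were Ighm, Cd79a, Lck and Il2rb, called lower with a median log2 change of -4.57, or -4.09 with genes at 0 set at their bound. With livers 2 and 4 alone 5 of 6 tested were called, and in a fit of the 8 WT libraries alone 2 of the list were tested and no neutrophil gene was. The summed level of the list was 1.51% in preparation 1, 8.84% in preparation 2, 0.708% in preparation 3 and 5.17% in preparation 4 of the whole-liver mean. Ighm, the immunoglobulin mu chain of B cells, stood at 0.944, 1.55, 1.22 and 1.92 FPKM in liver and 0, 0.0766, 0 and 0.0864 FPKM in hepatocytes (log2 change -4.95, SE 0.70, adjusted p = 0.000889). Cd79a, a part of the B cell receptor, was at 27 counts over the livers and 0 over the hepatocytes, at least 11.8-fold lower. The class II genes H2-Ab1, Cd74 and H2-Aa, which present antigen, were lower among 5 tested of 11 (2 calls with livers 2 and 4 alone), with a summed level of 9.68%, 40.2%, 21.2% and 28.9% in preparations 1 to 4. The H2-Aa call (log2 change -1.66, adjusted p = 0.0333) was lost without livers 1, 3 or 4, without preparations 1, 3 or 4, and in 5 of the other alternatives. The neutrophil gene S100a9 (39 counts against 1, a ratio of 47.8 with an exact 95% counting interval of 8.09 to 1937) and the platelet genes Ppbp, Pf4 and Itga2b were lower, the only ones tested of 7 and 6 listed. S100a9, Ppbp and Pf4 were near 0 in hepatocytes and passed the count filter through other libraries, so that their direction was close to fixed by the filter. Neither S100a9 nor any other neutrophil gene was called with livers 2 and 4 alone. A single platelet call (1) was left with livers 2 and 4 alone, without preparation 1 and without preparation 4.

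**Figure D3:**
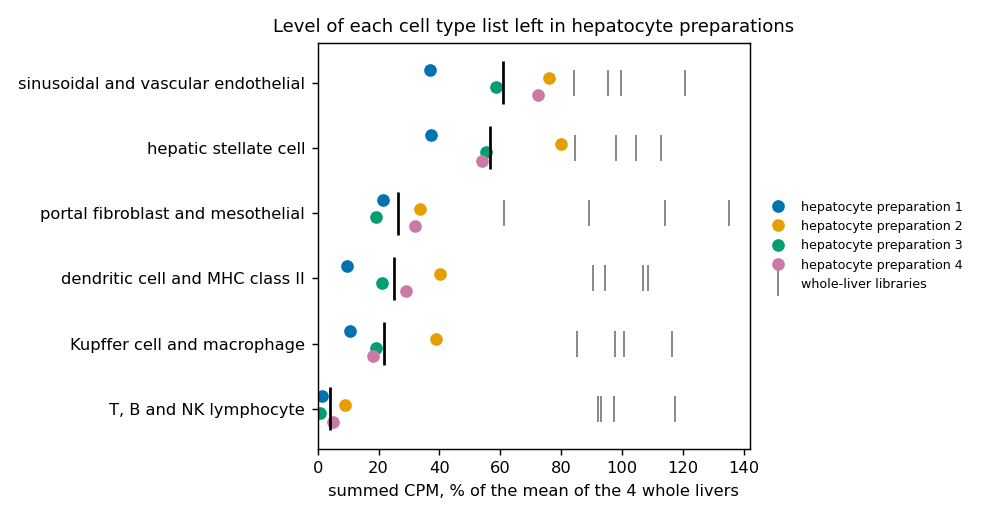
Summed CPM (counts scaled for library size by TMM) of 6 cell type lists in each hepatocyte preparation, as a percent of the mean of the 4 whole livers; coloured points are preparations, black bars their means and grey ticks the whole livers. Kupffer cell genes lie between 10.8% and 38.8%, and preparation 2 is the highest point in each of the 6 lists.

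All 34 endothelial genes listed were tested, 20 were lower (58.8% against 15.6% of all genes tested) and none higher (median log2 change -0.97), 9 with livers 2 and 4 alone and 19 to 22 without any single library, and 36.9%, 76.2%, 58.5% and 72.4% of the summed whole-liver level was left in preparations 1 to 4. With livers 2 and 4 alone the calls were fewer, but the median log2 change was -0.96, close to that with all 4 livers. Vwf, made by the endothelium of larger vessels, fell from 0.801, 1.67, 0.648 and 1.33 FPKM to 0.107, 0.247, 0.0742 and 0.362 FPKM (log2 change -2.46, SE 0.40, adjusted p = 0.00184). Clec4g, a lectin of sinusoidal cells, fell from 44.4, 29.0, 38.5 and 25.7 FPKM to 6.04, 16.5, 10.1 and 14.8 FPKM (log2 change -1.50, adjusted p = 0.00445, and 0.0738 with livers 2 and 4 alone). Plvap, Gpr182, Erg, Esam and Pecam1 fell by 1.39, 1.18, 1.33, 1.31 and 0.99 on the log2 scale and were called under all 19 alternatives.

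Stab2 and Kdr, both expressed by the same sinusoidal lining, did not follow. Stab2, a scavenger receptor, stood at 3.58, 8.89, 6.19 and 6.84 FPKM in liver and 3.67, 7.38, 5.82 and 7.06 FPKM in hepatocytes, a log2 change of -0.04 (SE 0.25, adjusted p = 0.933). Kdr, the main VEGF receptor, gave -0.20 (adjusted p = 0.562), and Cdh5 and Lyve1 gave -0.68 and -1.001 without a call. Stab2 and Kdr are among the longest genes of the list (8228 and 5924 bases), as is Vwf (8834 bases), which fell, and the livers differed in their length trend as given above. With length and GC trends removed from each library, 26 of the 34 were called lower. With livers 2 and 4 alone the Stab2 change was -0.30 (adjusted p = 0.591).

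All 30 hepatic stellate cell genes listed were tested, 19 were lower (63.3% against 15.6% of all genes tested) and none higher (median log2 change -1.35), 11 with livers 2 and 4 alone and 16 to 20 without any single library, and 37.2%, 79.8%, 55.4% and 54.1% of the summed level was left in preparations 1 to 4. The median log2 change with livers 2 and 4 alone was -1.38. Colec11, a secreted lectin, fell from 23.7, 23.1, 25.6 and 22.7 FPKM to 3.59, 9.14, 4.85 and 5.02 FPKM (log2 change -2.03, SE 0.25, adjusted p = 0.000302). The muscle-type filament gene Des fell by 1.97, the collagen gene Col3a1 by 2.02 and the peptide receptor gene Vipr1 by 1.87 on the log2 scale, each under all 19 alternatives. Dcn and Colec10 fell by 1.59 and 1.55 under all 19 as well, whereas the Hand2 fall of 1.59 was lost without livers 1 or 3 or preparations 1 or 4. Lrat, which makes the stored retinyl esters, fell by 1.31, a call lost with livers 2 and 4 alone (adjusted p = 0.133). Reln stood at 2.36 to 9.45 FPKM in liver and 2.99 to 7.13 FPKM in hepatocytes and Pdgfrb at 0.776 to 2.51 and 0.638 to 1.86 FPKM, and neither was called.

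Of 18 cholangiocyte genes 11 were tested, among them Krt19, Epcam, Krt7 and Anxa13, which were near 0 in hepatocytes and passed the count filter through other libraries. The direction of those genes was thus close to fixed by the filter, and none was called in a fit of the 8 WT libraries alone. Of the 11, 8 were lower (72.7% against 15.6% of all genes tested, a share that rests in part on those genes) and 1 was higher. With livers 2 and 4 alone 6 were lower and none higher. The median log2 change was -3.57, or -2.94 with genes at 0 set at their bound, but the summed level left was 79.5%, 86.8%, 74.5% and 80.7% in preparations 1 to 4, and members that were not lower held most of the counts left (Sox9, for one, had 294 counts over the livers and 538 over the hepatocytes). Spp1 (osteopontin) stood at 10.1, 11.4, 7.37 and 11.8 FPKM in liver and 0.814, 1.16, 0.602 and 0.734 FPKM in hepatocytes (log2 change -3.57, SE 0.32, adjusted p = 1.4e-05). The duct keratin Krt19 had 55 counts over the livers and 3 over the hepatocytes, a ratio of 22.5 (exact 95% counting interval 7.30 to 112), and Epcam had 71 and 1, a ratio of 87.1 (15.1 to 3488). Krt7 had 49 and 0, at least 16.7-fold lower, although liver 3 was at 0 too. Anxa13 had 18 and 0, at least 7.66-fold lower, and Cd24a fell by 2.70 on the log2 scale, a call lost with livers 2 and 4 alone. Sox9, a transcription factor of duct cells, gave a log2 change of 0.67 without a call (adjusted p = 0.327). The list of portal fibroblasts and mesothelium held 13 genes, of which 10 were tested and 7 were lower (70%, median log2 change -2.76), with 7 calls from livers 2 and 4 alone and 4 from livers 1 and 3 alone. In a fit of the 8 WT libraries alone 5 were tested and 3 were lower. Dpt and Gpm6a were near 0 in hepatocytes and passed the count filter through other libraries, so that their direction was close to fixed by the filter. Dpt, a dermal and portal matrix protein, was at 86 counts over the livers and 0 over the hepatocytes, at least 34-fold lower, and Lum and Eln (elastin) fell by 2.56 and 3.63 on the log2 scale, under all 19 alternatives. Gpm6a, a mesothelial marker, had 72 and 3 counts, a ratio of 29.4 (9.68 to 146), and the Thy1 fall of 1.32 was lost without preparations 1 or 2 or livers 2 or 3. The summed level left was 21.3%, 33.7%, 19.2% and 31.9% in preparations 1 to 4. Of 9 smooth muscle genes 5 were tested: Tagln fell by 1.27 under all 19 alternatives, Myh11 by 1.53, Mylk rose by a log2 change of 0.82 and Acta2 gave 0.14. The Myh11 call was lost without livers 1, 2 or 3 and without preparations 1, 3 or 4, and the Mylk call with livers 2 and 4 alone (adjusted p = 0.0821). Counts this low limit each of these ratios, and the intervals and floors cover counting error only.

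**Figure D4:**
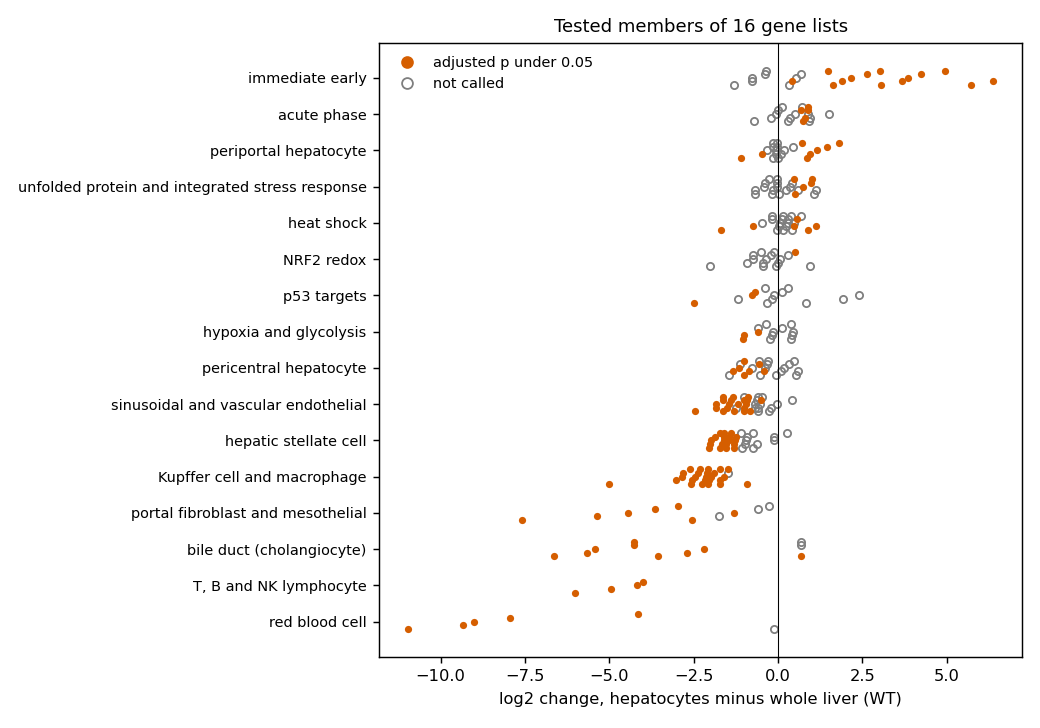
Log2 change (hepatocytes minus whole liver, WT) of each tested member of 16 gene lists; filled orange points have an adjusted p under 0.05 and open grey points do not. Among red blood cell genes with counts in hepatocytes Hbb-bs lies lowest at -9.32 (Hba-a2, at 0 there, is drawn at its fitted value), Fos lies highest among immediate early genes at 6.38, and most points of the stress lists are open.

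Genes of the cytoskeleton and targets of YAP and TAZ moved in both directions. Among 19 cytoskeletal genes and targets of serum response factor 4 rose (Myh9, Vcl, Actb and Tubb2a) and 6 fell (Cnn2, Anxa2, Vim, Msn, Flna and Tpm4). These were shares of 21.1% and 31.6%, against 9.81% and 15.6% of all genes tested. Actb (beta actin) stood at 83.1, 189, 182 and 194 FPKM in liver and 450, 267, 415 and 253 FPKM in hepatocytes (log2 change 1.15, SE 0.32, adjusted p = 0.0164), a call lost without liver 1 or preparation 1. Vim, the intermediate filament of mesenchymal cells, fell from 7.03, 10.6, 8.58 and 9.89 FPKM to 2.75, 5.67, 2.87 and 4.23 FPKM (log2 change -1.17, adjusted p = 0.00747), and Vim, Anxa2, Cnn2, Msn and Flna held under all 19 alternatives. The 4 rises were lost with livers 2 and 4 alone, and 2 were lost without liver 1. Of 11 YAP and TAZ targets tested Ccn1 rose and Axl and Arhgef17 fell, shares of 9.09% and 18.2% that lie near those of all genes tested. Ccn1, a matrix-associated signalling protein, stood at 3.58, 4.68, 2.27 and 6.70 FPKM and at 33.3, 8.66, 13.4 and 15.1 FPKM (log2 change 2.07, adjusted p = 0.0179), lost without livers 1 or 3 or preparation 1. Axl, a receptor kinase of macrophages and endothelium, fell by 1.77 under all 19 alternatives, and the Arhgef17 call was lost without preparation 1 or liver 2.

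Hepatocytes near the central vein express a programme driven by Wnt ligands from the adjoining endothelium, and those near the portal tract express urea cycle and gluconeogenic genes. Of 22 pericentral genes 7 were lower (31.8% against 15.6% of all genes tested) and none higher. Of 20 periportal genes 6 were higher (Cps1, Uroc1, Cdh1, Pigr, Hal and G6pc, 30% against 9.81%) and 2 lower (Sds and Arg1, 10% against 15.6%). No call of either list was left with livers 2 and 4 alone. Glul, glutamine synthetase of the innermost pericentral cells, stood at 196, 273, 295 and 289 FPKM in liver and 156, 67.6, 112 and 164 FPKM in hepatocytes (log2 change -1.02, SE 0.24, adjusted p = 0.00825, and 0.0528 with livers 2 and 4 alone). Cps1, the entry enzyme of the urea cycle, rose from 273, 731, 378 and 527 FPKM to 831, 1025, 1159 and 1067 FPKM (log2 change 1.16, SE 0.23, adjusted p = 0.00431, and 0.0605 with livers 2 and 4 alone). Slc1a2, Lhpp, Nkd1, Rhbg and Rnase4 were among the other pericentral calls. The pericentral count was 4 without liver 1 or preparation 1 and 3 without liver 3 or preparation 2, and the count of periportal falls was 1 without livers 1 or 3 or preparations 1, 3 or 4.

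The endothelial genes Wnt2, Wnt9b and Rspo3, whose products sustain the pericentral programme, were themselves lower in hepatocytes, by 1.64, 1.84 and 1.84 on the log2 scale (adjusted p = 0.00708, 0.0105 and 0.00445). The Wnt2 and Wnt9b calls were lost with livers 2 and 4 alone (adjusted p = 0.105 and 0.068), and the Rspo3 call held (0.0267). They were named after their values were seen. In the KO libraries the pericentral list had 10 of 22 members higher, where 20.2% of all genes tested were, and none lower, and Glul was 1.15 higher on the log2 scale in KO hepatocytes than in KO livers. The difference between genotypes did not pass the test for any pericentral gene, with its smallest adjusted p, 0.0629, at Glul. Over all genes tested the difference between genotypes gave 0 calls by edgeR (1002 at an unadjusted p under 0.05), 36 by DESeq2 and 3 by limma on FPKM. Without livers 1 and 3, however, edgeR called 811 genes in that difference (399 with a more positive change in WT and 412 with a more negative one).

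Of 20 secreted plasma proteins 5 were higher (Apob, Fga, Fgb, Plg and Fgg, 25% against 9.81% of all genes tested) and 1 lower (Apoc1, 5% against 15.6%). Apob, the long message of the main lipoprotein, stood at 193, 467, 251 and 463 FPKM and at 734, 674, 494 and 685 FPKM (log2 change 0.97, adjusted p = 0.01), whereas the short Apoc1 message fell by 0.62 on the log2 scale (adjusted p = 0.0341). With livers 2 and 4 alone no plasma protein gene was called, the Apoc1 call was lost without livers 1 or 3 or any single preparation, and the lower calls numbered 3 without liver 2 and 4 without liver 4. Of 20 hepatocyte transcription factors Prox1 and Zhx2 were higher (10%, near the 9.81% of all genes tested), both lost without livers 1 or 3, and 6 were higher without liver 2. Of 30 cytochrome P450 genes tested 3 were higher (Cyp2c70, Cyp4a12a and Cyp2d22) and 4 lower (Cyp4a14, Cyp1b1, Cyp3a11 and Cyp4b1), shares of 10% and 13.3% that lie near those of all genes tested, and none was called with livers 2 and 4 alone. The rises numbered 1 without liver 1 or preparations 1 or 4 and 0 without liver 3, and the falls 1 without livers 1 or 2 or preparations 1 or 2 and 2 without liver 3 or preparation 3. Cyp3a11, a xenobiotic-metabolising enzyme, stood at 3340, 2531, 3110 and 1766 FPKM in liver and 1040, 389, 235 and 2049 FPKM in hepatocytes, with preparation 4 inside the liver range, and its call (log2 change -1.50, adjusted p = 0.0404) was lost without livers 1, 2 or 3 or preparations 1, 2 or 3. Near-identical members of these families may share reads.

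Clock and fasting genes varied widely among the 4 preparations and among the 4 livers. The summed fasting list spanned 4151 to 9831 CPM in livers and 4639 to 7913 CPM in preparations. The summed clock list spanned 661 to 1026 CPM in livers and 563 to 922 CPM in preparations. Npas2, a partner of Clock, stood at 0.0846, 0.0789, 0.0819 and 0 FPKM in liver and 1.28, 1.80, 0.452 and 0.203 FPKM in hepatocytes (log2 change 4.02, SE 0.96, adjusted p = 0.0091). Clock, Arntl, Cry1 and Nfil3 were also higher and Usp2, Tef and Ciart lower, 5 rises (26.3% against 9.81% of all genes tested) and 3 falls of 19 tested. The share of falls (15.8%) lay near the 15.6% of all genes tested, and no clock call was left with livers 2 and 4 alone. Arntl, the core activator, was at 7.47, 8.33, 4.67 and 1.63 FPKM across preparations and 0.925, 2.37, 1.37 and 0.560 FPKM across livers, so that preparation 4 lay within the liver range. The rises numbered 3 without liver 1 or preparation 1 and 2 without livers 3 or 4 or preparation 2, and no fall was called without livers 3 or 4 or preparations 1 or 2. Time of day and material cannot be told apart. Of 17 fasting and gluconeogenesis genes tested, 2 were higher and none lower, with a median log2 change of 0.19. That share (11.8%) lay near the 9.81% of all genes tested, and 15 were not called. G6pc, described last, was counted with the periportal genes. Igfbp1, a liver gene repressed by insulin, was at 1.06, 6.79, 9.21 and 4.85 FPKM in liver and 39.6, 16.5, 169 and 7.70 FPKM in hepatocytes (log2 change 3.48, adjusted p = 0.0133), a call lost without preparation 3. Sik1, a kinase induced by cyclic AMP, rose from 1.53, 2.70, 3.44 and 5.26 FPKM to 8.92, 7.02, 9.16 and 13.7 FPKM (log2 change 1.64, adjusted p = 0.011). G6pc, the last enzyme of glucose release, was at 416 FPKM in preparation 3 and 86.4 to 116 FPKM in the others, against 25.6 to 79.4 FPKM in liver (log2 change 1.82, adjusted p = 0.0186), a call lost without preparation 3 or liver 1. None of Igfbp1, Sik1 and G6pc was called with livers 2 and 4 alone.

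The remaining lists gave few calls. Of 20 cholesterol synthesis genes 1 was lower (Pmvk), of 19 cell cycle genes tested Ccnd1 and Tk1 were lower, of 13 mitochondrial genes mt-Nd4 was higher and mt-Nd3 lower, and none of 4 noncoding RNAs tested was called. No such share reached the 9.81% higher or 15.6% lower of all genes tested. Each of these calls was lost with livers 2 and 4 alone, and all but Ccnd1 without 1 or more single libraries. Among genes on no list, Slc25a25, a mitochondrial ATP carrier, was among the 10 largest rises (13.96, 4.51, 37.3 and 40.2 FPKM against 70.3, 89.7, 121 and 69.9 FPKM, log2 change 1.93, adjusted p = 0.0232), a call lost without liver 1 or preparation 3. Pctp, a lipid transfer protein, was among the 10 largest falls through liver 1, at 35.5 FPKM there and 4.25 to 6.36 FPKM in the other livers against 0.777 to 1.76 FPKM in hepatocytes (log2 change -3.44, adjusted p = 0.0116), and was not called without liver 1. Of the 3176 genes called in WT, 3102 (97.7%) had the same direction in the KO libraries, which came from other mice, and 2600 were called there too. Of all genes tested, 20.2% were called higher and 23.9% lower in the KO libraries. The share of all genes with the same direction in both genotypes was not counted.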

How the data were processed

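Total RNA from 4 whole livers and 4 hepatocyte preparations of WT mice, and from the 8 matching KO samples, was sequenced as directional libraries after rRNA removal. The authors aligned reads to mm10 with STAR and deposited raw counts per gene (HTSeq 0.6.1 in the submitters' notes) and, from the same counts, FPKM values. The strand setting of counting is not given in the sources used here, so overlapping antisense genes cannot be separated. The deposited FPKM equalled counts divided by length and total, and 0 count columns were left without a sample. Libraries of the fibrosis diet were not used.

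Counts were tested in edgeR 4.0.16 (R 4.3.3; TMM, filterByExpr with a minimum count of 10 and total of 15, quasi-likelihood F test, Benjamini-Hochberg, threshold 0.05) over 16 libraries in 4 groups, and checked on simulated data. The simulated libraries held no trend with gene length and no split among the whole livers, so that check does not cover either. The exact two-sided permutation test of a single gene could not go below p = 0.0286 with 4 against 4 and is not quoted. Replicates carry separate numbers in their labels and were taken as separate mice, and no pair was a copy (chi-square per degree of freedom 25.8 or more). The 19 alternatives, among them DESeq2 1.42.0 and limma 3.58.1, are in the closing section. The 32 gene lists (594 genes, 587 found) and the libraries were chosen with earlier results of these data known. Named genes were the 10 largest rises and falls without overlap at a mean of 10 CPM or more, the 5 lowest p-values per list, the cell type markers and Ptk2; other members are named where all calls of a list are given or where said. Promoter windows came from RefSeq (GRCm38.p6). Some list members are not reported here by name.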

Additional observations from a re-analysis of the deposited data

Results flagged for a closer look

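Among 394 groups of 4 values checked, 25 held a value that stood apart from the other 3 by Dixon's criterion at the 95% level, and chance alone gives about 5%. For Pf4, Epcam, Lck, S100a9 and Mfap4 the other 3 values were 0, so any count at all would have stood apart. Hepatocyte preparation 1 held 7 of them. Among them were chaperone genes with a high value there: Hsp90aa1 at 193 FPKM (others 48.3 to 63.4), Hspa4l at 6.93 FPKM (2.31 to 2.89), Hsp90ab1 at 622 FPKM (299 to 349) and Hsp90b1 at 397 FPKM (175 to 207). It also held Ptk2 at 6.46 FPKM (5.68 to 5.79), Pigr low at 393 FPKM (602 to 644) and Pf4 at 0.0952 FPKM (0 in the others).

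In preparation 2, Itih4 was at 1071 FPKM (868 to 900), Flna at 2.59 FPKM (1.59 to 1.67), Cry1 at 7.596 FPKM (2.98 to 3.18) and Epcam at 0.0267 FPKM (0 in the others). In preparation 3, Jun was at 65.3 FPKM (41.1 to 44.8) and G6pc at 416 FPKM (86.4 to 116). In preparation 4, Fgg was low at 2210 FPKM (2582 to 2616), and Lck at 0.0281 FPKM, S100a9 at 0.118 FPKM and Mfap4 at 0.0347 FPKM were at 0 in the others. In whole liver 1, Actb was low at 83.1 FPKM (182 to 194), Plvap low at 13.5 FPKM (18.01 to 18.8) and Pctp high at 35.5 FPKM (4.25 to 6.36). In whole liver 2, Cyp4a14 was at 16.8 FPKM (0.764 to 2.25). In whole liver 3, Hba-a1 was at 174 FPKM (70.1 to 80.2), Hbb-bt at 7.03 FPKM (0.747 to 1.71) and Ier2 low at 16.3 FPKM (21.2 to 22.1). In whole liver 4, Npas2 was at 0 FPKM (0.0789 to 0.0846).

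Glul moved in opposite directions in the 2 genotypes: all 4 WT hepatocyte values lay below the WT livers (log2 change -1.02) and all 4 KO hepatocyte values above the KO livers (1.15). The difference, -2.17 on the log2 scale, had an adjusted p of 0.0629 by edgeR and did not pass the threshold.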

How the results depend on the processing

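Of 190 named genes tested, 157 were called, 53 of those under all 19 alternatives (10 higher, 43 lower), and none of the 157 changed direction. Against 3176 genes called (1227 higher, 1949 lower), fitting the 8 WT libraries alone gave 1601 (685 higher, 916 lower), omitting livers 1 and 3 gave 425 (68 and 357), and omitting livers 2 and 4 gave 4903 (2329 higher). Library totals gave 757 higher and removal of length and GC trends 805 higher. Leaving out single libraries gave 1562 (without liver 3) to 3778 genes in all, 531 to 1632 higher and 1031 to 2151 lower. Samples with the same replicate number carried different numbers in their labels, and their deviations correlated at 0.06, 0.14, 0.06 and -0.04, so the replicate numbers were not taken as pairs. The fit with the replicate block gave 990 genes (409 higher, 581 lower). The WT and KO difference gave 36 genes by DESeq2, 3 without the count filter, 3 by limma, 2 with library totals and, in a fit looked at after the data were seen, 811 without livers 1 and 3.

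As a median of gene ratios in place of summed levels, 39% was left for stellate cells (summed 56.6%), 13.5% for portal fibroblasts (26.5%), 8.38% for bile duct (80.4%), 0.166% for red blood cells (47.7%) and 12.2% for platelets (33.9%), and immediate early genes stood at 343% (438%) and cytoskeletal genes at 102% (167%). Without livers 2 and 4 the portal fibroblast share was 35.2%.

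Changes of sign were confined, among named genes, to genes not called in the report. Without livers 2 and 4 the log2 change was 0.33 for Stab2, 0.13 for Kdr, 0.76 for Reln, 0.040 for Pdgfrb, 0.11 for Msln -0.12 for Acta2 and 0.022 for Saa2. Without livers 1 and 3 it was 0.32 for Alas2, 0.038 for Apoa1, -0.14 for Fosl2, 0.18 for Atf4 and 0.36 for Xbp1, and with length and GC trends removed 0.064 for Alas2, 0.22 for Apoa1, 0.024 for Ttr, 0.24 for Atf4 and 0.43 for Saa2. The replicate block gave 0.00276 for Stab2, 0.018 for Reln and 0.013 for Atf4, and the 8 WT libraries alone 0.00663 for Atf4. Leaving out single libraries gave -0.22 to 0.050 for Alas2, -0.21 to 0.18 for Stab2, -0.38 to 0.014 for Kdr, -0.36 to 0.28 for Reln, -0.13 to 0.37 for Acta2, -0.10 to 0.11 for Atf4, -0.57 to 0.075 for Xbp1, -0.28 to 0.12 for Saa2 and -0.14 to 0.00093 for Hnf4a. The cause of these shifts was not tested. Depth limits the rarer cell types most: 17 of 21 lymphocyte genes had too few counts to test.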
